A study of Mus musculus with 7 samples.

Results

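Synaptic adhesion molecules are the cell surface proteins that hold the presynaptic and postsynaptic membranes together and help to specify which synapses form. The genes described here were taken by name from the 24346 genes of the deposited table and comprise 43 genes of 10 families: the neurexins, neuroligins, Slitrk, Lrrtm, Lrfn, Lrrc4 and Flrt genes, the contactins, the contactin-associated proteins (Cntnap genes) and the calsyntenins. Their RNA was measured in primary neurospheres, floating clusters grown in culture from neural stem cells (NSCs), prepared from the hippocampus of C57/BL6 mice aged 2 months. There were 7 libraries, 1 per mouse. The 4 controls were mice WT_215, WT_116, WT_213 and WT_220. The 3 Med23 CKO mice were KO_117, KO_214 and KO_218, and values below follow this order. Med23 CKO mice carry a tamoxifen-inducible Cre recombinase driven by Nestin together with floxed Med23 alleles, so that Med23, a subunit of the Mediator complex that links transcription factors to RNA polymerase II, is deleted only in cells in which Nestin-driven Cre was active. The labels call the controls wild type, whereas the study's methods describe littermates with 1 or 2 floxed Med23 alleles and no Cre. Tamoxifen was given to both groups, at a dose of 200 mg/kg on each of 5 days, with a recovery given as 3 to 4 weeks. The labels place this treatment at 2 months of age, and the methods place it at 1 month for the cultures.

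Neurexins sit mainly on axon terminals, where they bind neuroligins, Lrrtm proteins and calsyntenins across the synaptic cleft. Slitrk, Lrfn and Lrrc4 proteins are leucine-rich repeat proteins of the postsynaptic side, many of which bind receptor tyrosine phosphatases of the LAR family or netrin-G proteins. Contactins and their associated proteins also join axons to myelinating glia next to the node of Ranvier. Several of these genes are transcribed in glial progenitors and astrocytes as well as in neurons. In RNA from whole cultures, fewer cells of a type and less RNA per cell cannot be told apart.

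The level of each gene was given by the authors as FPKM (fragments scaled to the length of the transcript and to the number of mapped fragments), and differences were calculated on log2(FPKM + 1), a scale that understates the change of low genes. The depth of the libraries is unknown, so precision is judged from the spread between libraries. Med23 itself was lower in every Med23 CKO library (8.12 to 9.97 FPKM) than in every control library (10.1 to 12.9 FPKM), although its FPKM also covers exons that were not deleted (log2 difference -0.26, 95% interval -0.68 to 0.15, exact permutation test, two-sided, p = 0.0571). The NSC markers Nes and Sox2 were present in all libraries (61.1 to 241 and 69.4 to 194 FPKM). Markers of other cell types were also present and differed widely between libraries of the same group. The summed FPKM of 7 oligodendrocyte markers, among them the myelin gene Mbp, was 1647, 5090, 2238 and 468 in the controls, and 150, 3186 and 2726 in Med23 CKO. The summed FPKM of 7 markers of oligodendrocyte precursors, led by Olig1 and Olig2, ran the other way, with 2007, 700 and 906 in the first 3 controls, 2771 in WT_220, and 2198, 414 and 561 in Med23 CKO. Of this list, Olig1, Olig2, Cspg4 and Lhfpl3 had their 3 highest values in WT_215, WT_220 and KO_117. Sox10, Pdgfra and Gpr17 did not, and Sox10 was lowest in KO_117 (2.97 FPKM) and highest in WT_116 (70.3 FPKM). The summed level of 10 microglia markers was 439 FPKM in KO_214 and 17.5 to 93.2 in the other libraries. Of these 3 marker lists, 0 genes passed an unadjusted p under 0.05 between the groups. No gene of these lists was at 0 in any library. On the log2(FPKM + 1) scale, all 7 oligodendrocyte markers had a lower mean in Med23 CKO, and all 9 microglia markers that could be compared had a higher mean. The mean of Mobp in FPKM was higher in Med23 CKO (18.8) than in control (16.7).

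Of the 43 synaptic adhesion genes, 38 were above 0 FPKM in all libraries, and between 28 and 33 reached 1 FPKM in a library. Lrrc4b, which encodes a postsynaptic ligand of LAR phosphatases, had the highest mean level per length (79.7 FPKM), and other genes of high level were the calsyntenin Clstn1 (72.4), the neurexin Nrxn2 (47.6), the contactin Cntn1 (41.0), Nlgn2 (31.3), Nlgn3 (24.2) and Lrfn4 (16.7). The ranges over libraries of neighbouring genes in this order overlapped, from 34.1 to 151 FPKM for Lrrc4b and from 51.1 to 96.6 for Clstn1, so neighbours cannot be ordered beyond the spread between libraries. The 4 genes with the highest level in a library held between 48.5% and 57.5% of its summed synaptic adhesion FPKM. At the other end, 8 genes had a mean under 0.5 FPKM and were not compared between groups (Cntn5, Cntnap3, Cntnap5a, Cntnap5b, Cntnap5c, Lrfn2, Lrfn5 and Slitrk6). Cntn6 and Slitrk4 were the lowest genes above this minimum with means of 0.670 and 0.843 FPKM. Slitrk6 and Lrfn2 were the highest genes below it with 0.316 and 0.113 FPKM. Cntn5, Cntnap3, Cntnap5a, Cntnap5b and Cntnap5c were listed at 0 in at least 1 library.

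**Figure D1:**
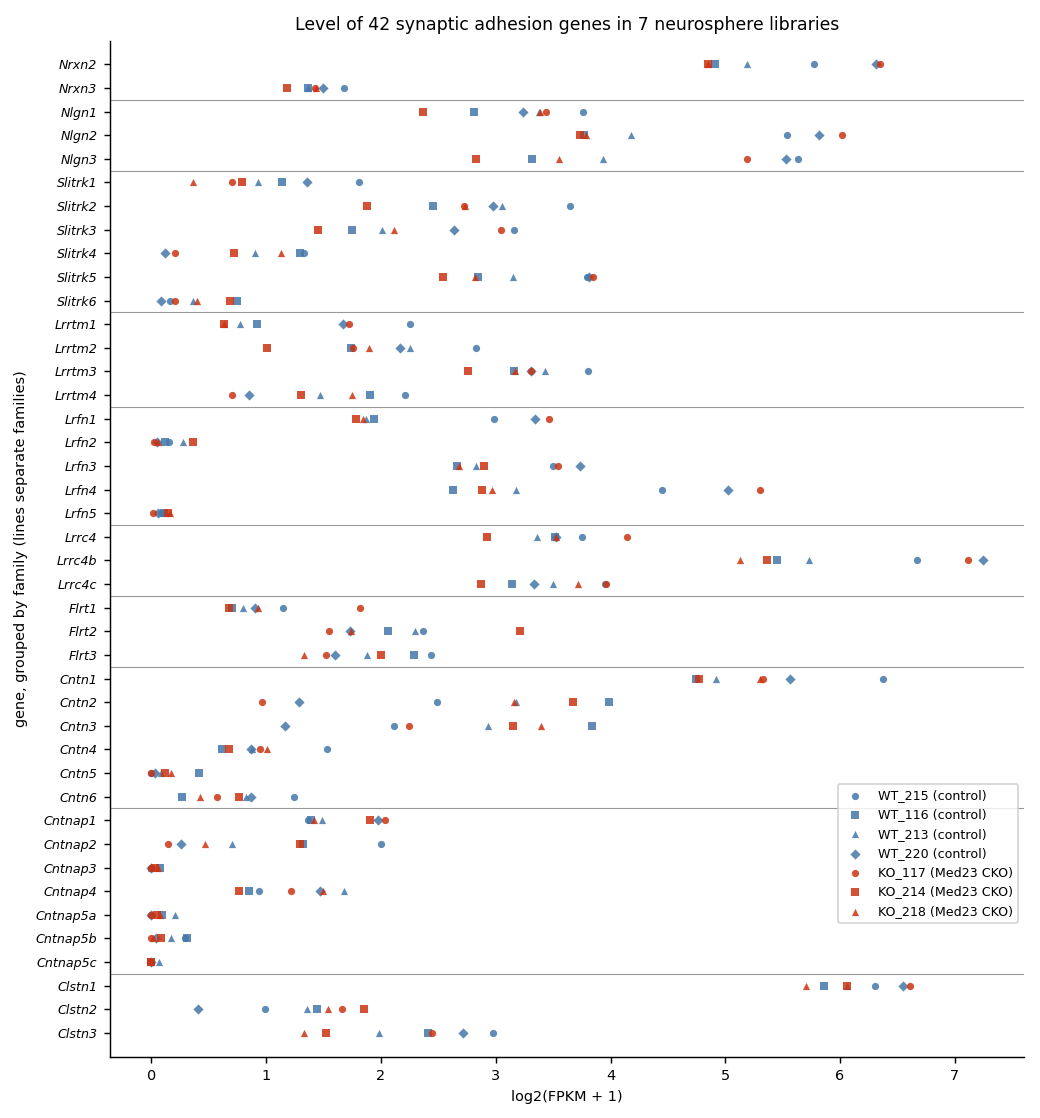
Level of 42 of the 43 synaptic adhesion genes on log2(FPKM + 1) in the 4 control (blue) and 3 Med23 CKO (red) libraries, with a different symbol for each mouse of a group. For most genes the symbols of both groups are mixed, with WT_215, WT_220 and KO_117 at the right for genes such as Lrrc4b, Nlgn2 and Lrfn4.

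The 43 genes took up 0.127%, 0.0633%, 0.0758% and 0.120% of the summed FPKM of the controls, and 0.124%, 0.0548% and 0.0698% of that of the Med23 CKO libraries. The highest shares were thus in WT_215, WT_220 and KO_117, which are from both groups. These were also the 3 libraries with the highest precursor marker sums and the lowest oligodendrocyte marker sums. The summed FPKM of 15 neuroblast and neuron markers, led by Gap43, was highest there too (493, 711 and 663, against 165 to 466 elsewhere). Not every gene of that list followed this order, and Snap25 and Stmn2 were highest in WT_116 (33.0 and 11.9 FPKM). For 14 of the 35 genes compared between groups (40.0%), these 3 libraries held the 3 highest values, against 26.2% of all 14151 genes compared. They included Clstn1, Clstn3, Cntn1, Lrfn1, Lrfn3, Lrfn4, Lrrc4b, Lrrtm1, Nlgn2, Nlgn3, Nrxn2, Slitrk3 and Slitrk5. WT_215 held the highest value of 17 of the 35 genes (6.54% of all genes compared), and KO_214 the lowest value of 15 (18.7% of all genes compared). The part of cell type composition in these levels was not tested.

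**Figure D2:**
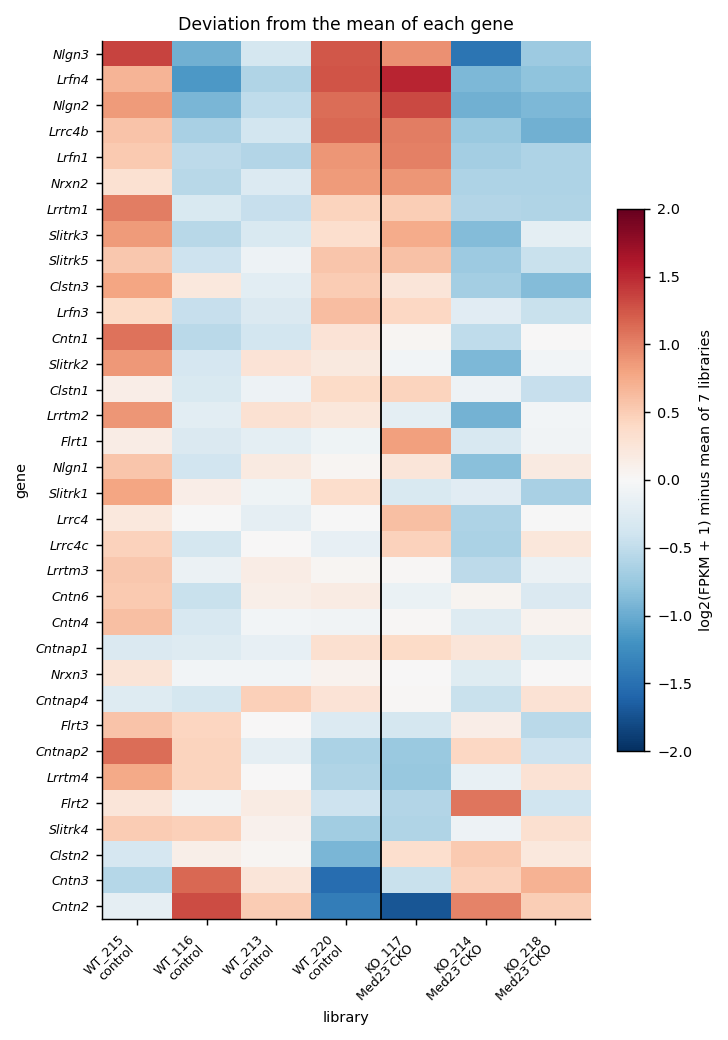
Deviation of each library (columns) from the mean of the gene over the 7 libraries on log2(FPKM + 1), for 34 of the 35 genes compared (rows, ordered by the sum of the deviations in WT_215, WT_220 and KO_117), with red above and blue below the mean and the black line between control and Med23 CKO. In the upper rows KO_117 resembles WT_215 and WT_220 more than it resembles KO_214 and KO_218, and Cntn2 and Cntn3 at the bottom show the opposite order.

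To examine whether loss of Med23 changed the expression of synaptic adhesion genes, limma's moderated test of Med23 CKO against control was run across the 14151 genes with a mean of at least 0.5 FPKM, with two-sided p-values and Benjamini-Hochberg adjustment over all of them. Slitrk1 was lower in Med23 CKO and Clstn2 was higher without overlap of the groups, but 0 of the 35 genes passed an adjusted p under 0.05 in limma, as was the case for 0% of all genes in either direction. At an unadjusted p under 0.05, 1 of the 35 was lower (0.996% of all genes compared) and 0 were higher (0.502% of all genes). All 3 Med23 CKO values lay below all 4 control values for 1 gene (1.53% of all genes compared) and above them for 1 gene (0.784% of all genes). The mean on log2(FPKM + 1), the scale of all group means counted below, was lower in Med23 CKO for 29 of the 35 genes, against 56.2% of all genes compared, and the median log2 difference was -0.20, against -0.03 for all genes. This balance depended on single libraries. Without KO_214, 20 genes had a lower mean and 15 a higher mean with a median of -0.07. That was close to all genes in that setting (60.2% lower, median -0.06). Without WT_215 there were 23 and 12 with a median of -0.08 (all genes 54.9% lower, -0.02). Without WT_220 there were 24 and 11 with -0.12 (59.3%, -0.04), and without KO_218 23 and 12 with -0.16 (48.9%, 0.01). Without KO_117, 29 had a lower mean and the median was -0.39 (all genes 53.3% lower, -0.03).

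**Figure D3:**
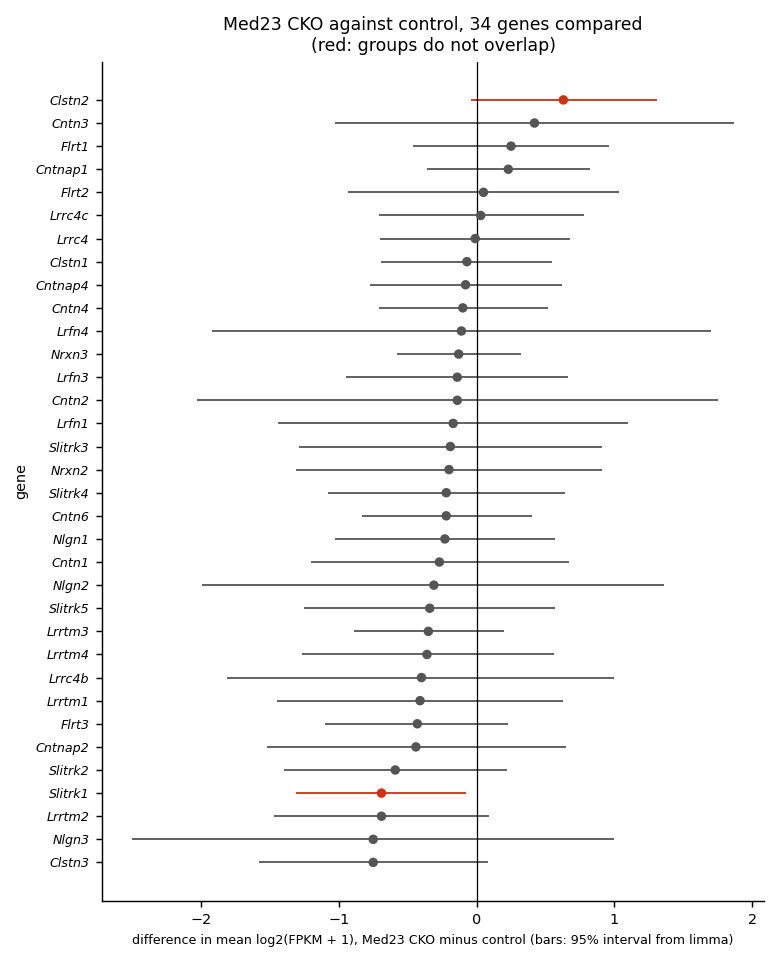
Difference in mean log2(FPKM + 1) between Med23 CKO and control for 34 of the 35 genes compared, with 95% intervals from limma as bars and red for the 2 genes whose groups do not overlap. The points run from -0.75 for Clstn3 to 0.63 for Clstn2, and Slitrk1 has an interval that lies below 0 (-1.31 to -0.08).

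Slitrk1 encodes a postsynaptic leucine-rich repeat protein that binds receptor tyrosine phosphatases. It had 2.50, 1.20, 0.900 and 1.57 FPKM in the controls and 0.624, 0.728 and 0.283 FPKM in Med23 CKO. Every Med23 CKO value was below the lowest control value, that of WT_213. The log2 difference was -0.69 (standard error 0.26, n = 4 and 3, limma p = 0.0323 and adjusted p = 0.9999, exact permutation test, two-sided, p = 0.0571). Leaving out single libraries gave -0.82 to -0.53, and the limma p was 0.0769 without WT_215, 0.0636 without WT_220 and 0.111 without KO_218, each above the threshold. It was also above the threshold with quantile normalization (0.0844) and with a covariate for the leading digit of the mouse number (0.0518). The neuroblast and neuron markers, a list of 15 genes in which Slitrk1 is not included, had summed levels of 337 to 711 FPKM in control and 165 to 663 in Med23 CKO. In Med23 CKO, 12 had a lower and 3 a higher mean. Of them 2, Nrgn and Gad1, were lower at an unadjusted p under 0.05 in limma (0.996% of all genes compared). Gad1 did not overlap (8.92 to 12.2 FPKM in control, 2.21 to 5.24 in Med23 CKO), and Nrgn did (21.9 to 42.8 and 2.61 to 23.6 FPKM). The groups of Dlx2 did not overlap either (0.366 to 3.12 and 0.0889 to 0.241 FPKM). Groups separate on the lower side made up 1.53% of all genes compared. The part of these markers in the level of Slitrk1 was not tested.

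Clstn2, a calsyntenin of the postsynaptic membrane, had 0.986, 1.72, 1.56 and 0.324 FPKM in the controls and 2.17, 2.60 and 1.90 FPKM in Med23 CKO. The lowest Med23 CKO value, that of KO_218, was above the highest control value, that of WT_116. The log2 difference was 0.63 (95% interval -0.04 to 1.31), with p = 0.0857 in the two-sided exact permutation test. Leaving out single libraries gave 0.42 to 0.77, and the unadjusted limma p was 0.0416 without WT_116. Clstn3, whose protein binds neurexins, went the other way with 6.87, 4.31, 2.94 and 5.55 FPKM in the controls and 4.45, 1.86 and 1.52 FPKM in Med23 CKO. KO_117 lay within the control range, and KO_214 and KO_218 lay below it. Its log2 difference was -0.75 (95% interval -1.58 to 0.08, exact permutation test, two-sided, p = 0.143), and ranged from -1.09 without KO_117 to -0.54 without KO_218. The unadjusted limma p was 0.0108 without KO_117, 0.0399 without WT_213 and above the threshold without any other library. The third calsyntenin and the highest, Clstn1, had 77.9, 57.0, 65.7 and 92.8 FPKM in the controls and 96.6, 65.6 and 51.1 FPKM in Med23 CKO. It averaged 73.4 ± 15.5 FPKM (SD, n = 4) for controls and 71.1 ± 23.3 FPKM (SD, n = 3) for Med23 CKO mice, with an interval of the log2 difference from -0.69 to 0.55.

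The sequences before the start sites of Slitrk1 and Clstn2 are shown because these are the genes whose groups were separate, with Slitrk2, which shares a motif with Clstn2, and Lrrc4b, the gene of highest mean level. They are the 250 bases upstream of the start site in RefSeq on GRCm38.p6, 5′ to 3′ on the strand of the gene, and capitals mark the motifs found (the last of Slitrk2 is a GC box read on the other strand). The RefSeq starts differ from the GENCODE gene ends given further on. Those of Lrrc4b and of Slitrk2 (GENCODE gene on chromosome X from 66649318 to 66661393) lie inside the GENCODE gene, as does that of Clstn2, close to the gene end.
Slitrk1 chr14:108914240-108914489, reverse strand: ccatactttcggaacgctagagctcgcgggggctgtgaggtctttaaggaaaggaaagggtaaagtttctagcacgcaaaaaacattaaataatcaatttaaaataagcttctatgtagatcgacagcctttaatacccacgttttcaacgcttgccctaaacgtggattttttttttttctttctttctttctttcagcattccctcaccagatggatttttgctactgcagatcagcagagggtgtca
Clstn2 chr9:98033168-98033417, reverse strand: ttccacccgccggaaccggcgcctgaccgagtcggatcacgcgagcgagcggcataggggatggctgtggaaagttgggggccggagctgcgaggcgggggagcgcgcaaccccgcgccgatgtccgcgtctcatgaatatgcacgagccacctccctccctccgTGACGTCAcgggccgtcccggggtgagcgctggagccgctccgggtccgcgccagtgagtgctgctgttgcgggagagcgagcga
Slitrk2 chrX:66652909-66653158, forward strand: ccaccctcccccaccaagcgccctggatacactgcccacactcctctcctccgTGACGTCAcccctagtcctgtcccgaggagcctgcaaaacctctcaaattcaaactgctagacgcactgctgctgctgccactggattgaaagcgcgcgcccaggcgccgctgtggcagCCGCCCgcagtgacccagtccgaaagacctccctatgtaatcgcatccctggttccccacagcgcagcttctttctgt
Lrrc4b chr7:44442237-44442486, forward strand: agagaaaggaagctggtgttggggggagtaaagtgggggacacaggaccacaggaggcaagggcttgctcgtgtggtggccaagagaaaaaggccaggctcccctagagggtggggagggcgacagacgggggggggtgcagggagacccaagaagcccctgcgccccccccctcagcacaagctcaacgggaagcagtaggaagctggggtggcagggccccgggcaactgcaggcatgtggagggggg
Such windows were matched for 31 of the 43 genes (42 windows). Both strands were searched for the cyclic AMP response element TGACGTCA, the ETS motif CCGGAAG, the Egr motif GCGTGGGCG, the GC box GGGCGG and the E-box CAGCTG. The cyclic AMP response element was in 2 of the 42 windows, those of Clstn2 and Slitrk2 printed above, and in 1.55% of the 32851 windows of all genes. The GC box was in 9 windows (21.4%, and 32.7% of all windows) and the E-box in 7 (16.7%, and 13.0% of all windows). The letters of the ETS motif and of the Egr motif were in 0 of the 42 windows, and in 6.91% and 0.536% of all windows. The windows of Slitrk1 and Lrrc4b held 0 of the 5 motifs. So did the other window of Slitrk2, directly before its GENCODE start (chrX:66649068-66649317).

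The neurexins were led by Nrxn2, with 53.6, 29.0, 35.4 and 78.7 FPKM in the controls and 80.5, 27.8 and 27.8 FPKM in Med23 CKO. The highest and the lowest of these values were both from Med23 CKO mice. Nrxn3 was low and the most even of the genes compared, with 1.27 to 2.21 FPKM over all libraries, 1.74-fold from lowest to highest. The log2 differences of Nrxn2 and Nrxn3 were -0.20 and -0.13, with 95% intervals of -1.31 to 0.91 and -0.58 to 0.32. A 2-fold lower level of Nrxn2 is therefore within its interval.

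Among the neuroligins, the partners of the neurexins, Nlgn2, which is found at inhibitory synapses, had 45.5, 12.6, 17.1 and 55.2 FPKM in the controls and 63.6, 12.3 and 12.8 FPKM in Med23 CKO. Nlgn3 had 48.7, 8.94, 14.3 and 45.1 FPKM in the controls and 35.5, 6.10 and 10.7 FPKM in Med23 CKO. In both genes WT_215, WT_220 and KO_117 were at least 2-fold above each of the other 4 libraries. The log2 difference of Nlgn3 was -0.75 with an interval of -2.50 to 1.0, and went from -1.41 to -0.23 with single libraries left out. Nlgn1, a neuroligin of excitatory synapses, was more even, with a mean of 9.09 ± 2.69 FPKM (SD, n = 4) for controls and of 7.82 ± 3.18 FPKM (SD, n = 3) for Med23 CKO mice.

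The Lrrtm genes, whose products bind neurexins from the postsynaptic side, had a lower mean in Med23 CKO for all 4 genes, with a median log2 difference of -0.38, and 0 of them passed an unadjusted p under 0.05. Lrrtm3 was the highest, with 13.0, 7.91, 9.77 and 8.92 FPKM in the controls and 8.89, 5.77 and 7.96 FPKM in Med23 CKO. Lrrtm2 had 6.08, 2.33, 3.77 and 3.495 FPKM in the controls and 2.39, 1.006 and 2.72 FPKM in Med23 CKO. For each, only the control WT_116 lay within the Med23 CKO range. The log2 differences were -0.35 for Lrrtm3 (95% interval -0.89 to 0.20) and -0.69 for Lrrtm2 (-1.47 to 0.09), and Lrrtm2 passed an unadjusted p under 0.05 in limma when WT_116 was left out but fell to -0.42 without KO_214. Without WT_116 the groups of Lrrtm2, Lrrtm3, Slitrk1, Slitrk2 and Cntn6 did not overlap, all lower in Med23 CKO, against 3.03% of all genes compared in that setting. Lrrtm1 and Lrrtm4 stood between 0.546 and 3.75 FPKM in all libraries.

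Of the 6 Slitrk genes, 5 could be compared and all 5 had a lower mean in Med23 CKO (median log2 difference -0.34). Slitrk5 was the highest of them, with 12.9, 6.20, 7.90 and 13.1 FPKM in the controls and 13.4, 4.80 and 6.05 FPKM in Med23 CKO, so that the highest value and the 2 lowest were all from Med23 CKO mice. Slitrk2 had 11.5, 4.47, 7.29 and 6.89 FPKM in the controls and 5.61, 2.67 and 5.64 FPKM in Med23 CKO, a log2 difference of -0.59 (95% interval -1.40 to 0.22, exact permutation test, two-sided, p = 0.257). It was -0.30 without KO_214 and -0.38 without WT_215. Slitrk3 ranged from 1.73 to 7.94 FPKM over both groups. Slitrk4 stood at 0.0848 FPKM in WT_220 and 0.153 FPKM in KO_117 and between 0.646 and 1.51 in the other libraries. Slitrk2, Slitrk4 and Nlgn3 are on the X chromosome, and Xist, the RNA of the inactive X chromosome of females, was at 91.3 FPKM in WT_220, at 111 FPKM in KO_218 and at most at 0.565 FPKM in the others. The part of sex in their levels was not tested.

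The Lrfn genes encode postsynaptic proteins with leucine-rich repeat, immunoglobulin and fibronectin domains. Lrfn4 was the highest of them, with 20.9, 5.19, 8.05 and 31.6 FPKM in the controls and 38.4, 6.36 and 6.80 FPKM in Med23 CKO. Its highest value was 7.396-fold its lowest, and the log2 difference between the groups was -0.11 (95% interval -1.92 to 1.70). Lrfn1 and Lrfn3 were likewise highest in WT_215, WT_220 and KO_117 (6.91 to 10.01 and 10.3 to 12.3 FPKM), and stood between 2.44 and 2.84 FPKM and between 5.32 and 6.47 FPKM in the other libraries.

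Lrrc4, Lrrc4b and Lrrc4c encode the netrin-G ligand proteins and together held 21.9% of the summed synaptic adhesion FPKM, the largest share of the 10 families. Lrrc4b had 101, 42.6, 52.0 and 151 FPKM in the controls and 138, 40.1 and 34.1 FPKM in Med23 CKO. KO_117 lay between WT_215 and WT_220, and KO_214 and KO_218 lay below all controls. The log2 difference was -0.40 (95% interval -1.81 to 1.0), and leaving out single libraries gave -1.02 (without KO_117) to -0.03 (without KO_218). Without KO_117, the groups of 7 genes did not overlap, all lower in Med23 CKO (Clstn3, Lrfn1, Lrrc4b, Lrrtm1, Nrxn2, Slitrk1 and Slitrk5), against 12.1% of all genes compared in that setting. Lrrc4 (6.58 to 16.6 FPKM) and Lrrc4c (6.30 to 14.6 FPKM) moved less between libraries, with log2 differences of -0.01 (95% interval -0.70 to 0.68) and 0.03 (-0.71 to 0.78).

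The Flrt genes, whose proteins bind latrophilins and Unc5 receptors, took 1.63% of the summed FPKM. Flrt2 had 4.17, 3.16, 3.90 and 2.31 FPKM in the controls and 1.92, 8.25 and 2.34 FPKM in Med23 CKO, with KO_214 well above every other library. KO_214 also had the highest sum of 8 mural cell and fibroblast markers (318 FPKM, against 47.4 to 96.0 in the other libraries), and their part in the level of Flrt2 was not tested. Without KO_214 the log2 difference of Flrt2 was -0.47. Flrt3 ranged from 2.03 to 4.43 FPKM in control and from 1.52 to 3.00 in Med23 CKO. Flrt1 was at 2.52 FPKM in KO_117 and between 0.593 and 1.21 elsewhere.

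**Figure D4:**
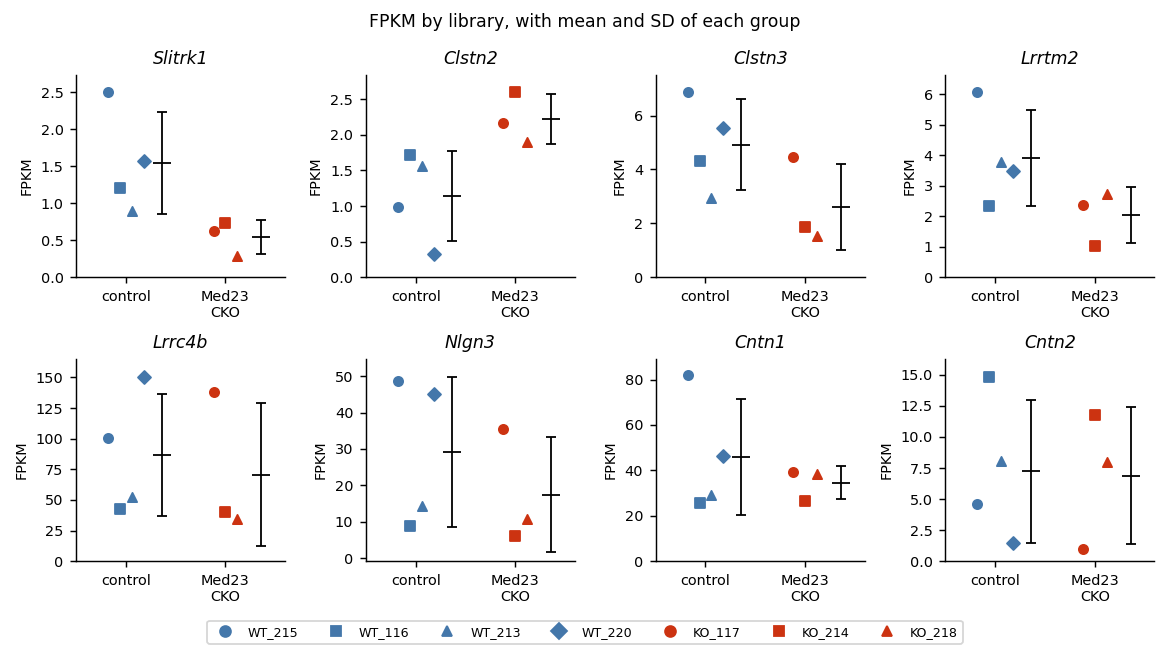
FPKM of 8 synaptic adhesion genes by library, with a symbol for each mouse and the mean and SD of each group beside the points (n = 4 control, blue, and n = 3 Med23 CKO, red). The groups are separate for Slitrk1 and Clstn2, whereas KO_117 stands near WT_215 and WT_220 for Lrrc4b and Nlgn3 and at the lower end for Cntn2 (0.946 FPKM).

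Contactins are immunoglobulin proteins anchored to the outer face of the plasma membrane. Cntn1, which joins axons to the loops of myelin at the paranode, was the highest, with 81.9, 25.8, 29.3 and 46.2 FPKM in the controls and 39.2, 26.4 and 38.4 FPKM in Med23 CKO. All Med23 CKO values lay within the control range, whose highest value came from WT_215. Cntn2, a contactin of the juxtaparanode that oligodendrocytes also make, had 4.62, 14.8, 8.05 and 1.44 FPKM in the controls and 0.946, 11.8 and 7.95 FPKM in Med23 CKO. It was highest in WT_116 and KO_214 and lowest in KO_117 and WT_220, which are also the 2 libraries with the highest and the 2 with the lowest oligodendrocyte marker sums. Cntn3 had 3.34, 13.3, 6.61 and 1.24 FPKM in the controls and 3.73, 7.90 and 9.51 FPKM in Med23 CKO, and was also highest in WT_116 and lowest in WT_220. The part of myelinating cells in these levels was not tested. The log2 differences were -0.27 for Cntn1, -0.14 for Cntn2 (95% interval -2.03 to 1.75) and 0.42 for Cntn3 (-1.03 to 1.87). Cntn4 and Cntn6 stayed between 0.205 and 1.88 FPKM.

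The contactin-associated proteins, which pair with contactins along myelinated axons, were the family with the lowest summed level (1.03% of the total). Cntnap1, the partner of Cntn1 at the paranode, had 1.58, 1.63, 1.80 and 2.93 FPKM in the controls and 3.10, 2.74 and 1.67 FPKM in Med23 CKO, a log2 difference of 0.23 (95% interval -0.36 to 0.82). The groups overlapped. Cntnap2, the partner of Cntn2 and one of the longest genes of the genome, ranged from 0.107 to 3.00 FPKM, 28.2-fold, with its highest value in WT_215 and its lowest in KO_117. Cntnap4 stood between 0.695 and 2.20 FPKM. Of the genes under the minimum, Cntnap5b had 0.224, 0.238, 0.125 and 0.0252 FPKM in the controls and 0, 0.0562 and 0.00871 FPKM in Med23 CKO, so the groups overlapped at levels near 0.

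All 43 genes could be placed on GRCm38 with the GENCODE M21 annotation. They differed greatly in structure. Lrfn4, on chromosome 19 from 4611785 to 4615667, spans 3.88 kb, and Cntnap2, on chromosome 6 from 45059357 to 47304213, spans 2245 kb. Slitrk1 lies on chromosome 14 from 108908800 to 108914158, Clstn2 on chromosome 9 from 97444395 to 98033181, and Lrrc4b on chromosome 7 from 44429018 to 44463351. The coding sequence was in 1 exon for 12 of the 43 genes, which include all Slitrk and all Flrt genes. Among the genes, 8 lie within a protein-coding gene of the other strand, for example Lrrtm1 in Ctnna2 and Lrrtm3 in Ctnna3, both catenin genes, and 11 share exon bases with another gene. Nlgn3 shared 41.2% of its exon bases with the noncoding transcript Gm21986 on the same strand, and Lrrtm4 shared 25.1% with an antisense gene. Counting by strand is not stated in the sources used here, so the levels of these genes are uncertain to that extent.

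The comparison was extended to further adhesion genes, taken by known binding or family. Of 31 binding partners of the genes above, 26 could be compared, and 0 passed an adjusted p. At an unadjusted p under 0.05 in limma, 0 were lower (0.996% of all genes compared) and 0 higher (0.502% of all genes). Of the 26, 15 had a lower and 11 a higher mean, with a median log2 difference of -0.05. The LAR family phosphatase Ptprs, a receptor of Slitrk and Lrrc4b proteins, had 105, 56.3, 72.3 and 132 FPKM in the controls and 115.6, 63.8 and 50.3 FPKM in Med23 CKO. Its relative Ptprd was lowest in WT_220 (2.67 FPKM) and KO_117 (5.95 FPKM) and highest in WT_116 (22.6 FPKM). Ptprs thus had its 3 highest values in the same libraries as Lrrc4b. So did their relative Ptprf (31.3, 38.9 and 39.6 FPKM in WT_215, WT_220 and KO_117, and at most 19.5 elsewhere). Ptprd did not. Of 36 genes of other adhesion families, 31 could be compared, and 0 passed an adjusted p. At an unadjusted p under 0.05 in limma, 0 were lower (0.996% of all genes compared) and 1 was higher (0.502% of all genes). That gene, Sdk2, an immunoglobulin adhesion protein, had 0.788, 1.21, 1.63 and 0.535 FPKM in the controls and 1.94, 3.06 and 1.84 FPKM in Med23 CKO, without overlap (log2 difference 0.70, 95% interval 0.09 to 1.31, two-sided exact permutation test, p = 0.0571). Amigo1, a leucine-rich repeat adhesion protein, was also separate, with 3.27, 3.51, 3.62 and 3.95 FPKM in the controls and 5.05, 5.05 and 4.17 FPKM in Med23 CKO. Its log2 difference was 0.33 with an interval of -0.09 to 0.74 and a limma p of 0.109, and the two-sided exact permutation p was 0.0286, the smallest that 3 libraries against 4 can give. Groups separate on the higher side made up 0.784% of all genes compared.

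**Figure D5:**
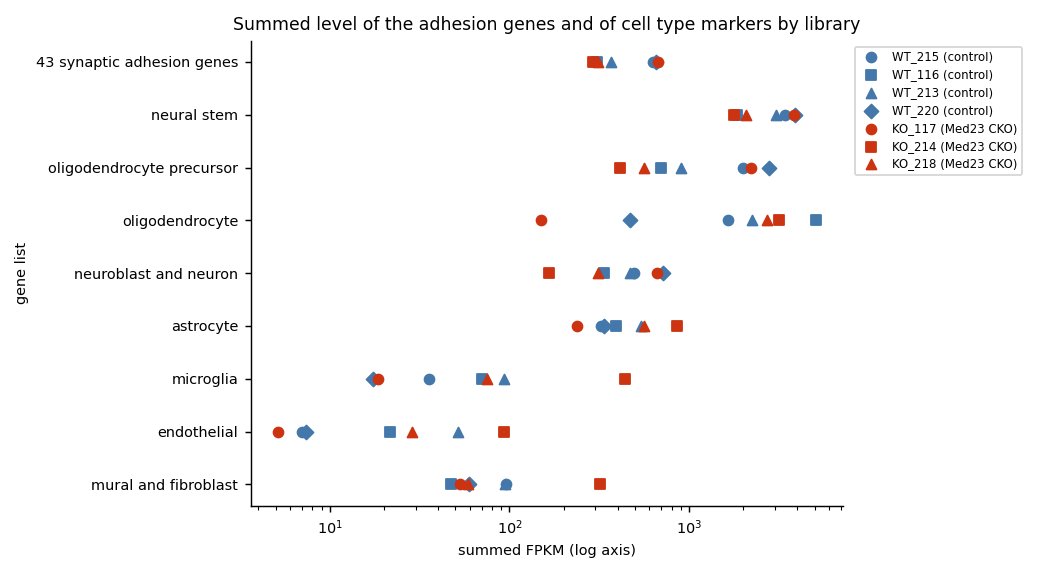
Summed FPKM (log axis) of the 43 synaptic adhesion genes and of 8 lists of cell type markers in each library (control blue, Med23 CKO red, a symbol for each mouse). The sum of the adhesion genes is highest in WT_215, WT_220 and KO_117 (630 to 673 FPKM, against 293 to 368 in the others). So are the sums of the oligodendrocyte precursor markers, led by Olig1 and Olig2, of the neural stem markers and of the neuroblast and neuron markers. The sum of the oligodendrocyte markers is lowest there.

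The other marker lists were also spread within the groups. The 10 NSC markers summed to 1840 to 3877 FPKM in control and 1784 to 3857 in Med23 CKO, and these sums were highest in WT_215, WT_220 and KO_117. The sum of the 8 astrocyte markers was highest in KO_214 (862 FPKM, against 237 to 562 elsewhere), as was that of the 7 endothelial markers (93.4 FPKM, against 5.13 to 51.4). Among the astrocyte markers, Gfap, Aqp4, Gja1, Slc1a2 and Aldoc were highest in KO_214, Aldh1l1 in WT_220, S100b in WT_116 and Gjb6 in KO_218. Of these lists, of the microglia list and of the mural and fibroblast list, 0 genes passed an unadjusted p under 0.05 in limma or an adjusted p. Cspg4 is in both the precursor list and the mural list.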

How the data were processed

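Neurosphere RNA was sequenced in 7 libraries (4 control and 3 Med23 CKO), which were grouped by sample title. The authors trimmed adapters (cutadapt), mapped reads to mm10 (TopHat) and deposited FPKM per gene and library from Cuffdiff. The gene annotation is not given in the sources used here. The deposited table also holds the authors' group means and their own comparison (log2 fold change, test score, p-value, q-value), which were not used. Low FPKM values showed no steps worth 1 fragment (at most 3.72% of low genes shared a bin 0.05 wide on the log2 scale), so depth is unknown. No pair of libraries held the same values (correlations of log2 values between 0.788 and 0.979). The study states that the neurospheres of 1 mouse made up 1 sample, with n = 3 in each group, whereas the deposited table holds 4 control libraries. Each library has its own mouse number, and the p-values set the difference between groups against the spread between these libraries.

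Genes with a mean of at least 0.5 FPKM entered the test on log2(FPKM + 1) (a pseudocount of 1) by limma 3.58.1 (lmFit and eBayes with trend) in R 4.3.3, with two-sided tests and Benjamini-Hochberg adjustment over 14151 genes. Exact permutation tests over the 35 splits of 7 libraries into 4 and 3 compared the size of the difference, with a smallest p of 0.0286, in Python 3.11.15 with numpy 2.4.6. On simulated data for this comparison with 14151 genes, 145 of 200 genes changed by 2 on the log2 scale were called (72.5%), and 4 unchanged genes were. The simulated noise was drawn independently for each gene, and a change of 2 was larger than any difference of the adhesion genes. The power to find differences of their size is therefore not known from it. The synaptic adhesion genes and all lists were chosen by name with earlier results of these data known. Named with values in every library were the genes with an unadjusted p under 0.05 or groups that do not overlap and the highest gene of each family, with further genes where a family is described. Ptprs, Ptprd, Ptprf, Snap25, Stmn2, Cntnap5b and Xist were chosen after their values were seen, as was Slitrk2 for its sequence. Protein sequences were not used here. The values of 1 adhesion gene, which is part of all counts and sums, are not reported here. The alternatives were a pseudocount of 0.1, no filter, a mean of at least 1 FPKM, quantile normalization, median centring, limma without trend or with array weights, a covariate for the leading digit of the mouse number, and each library left out.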

Additional observations from a re-analysis of the deposited data

Results flagged for a closer look

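The control WT_220 had 2.93 FPKM of Cntnap1, apart from the other 3 controls (1.58 to 1.80 FPKM), with a gap of 0.837 of the whole control range, which is above Dixon's 95% critical value for 4 samples. Chance sets 1 in 20 such groups apart, and Cntnap1 was the only one among Med23 and the 35 genes compared. Med23 CKO, with 3 libraries, was not tested in this way.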

How the results depend on the processing

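The direction of 16 of the 35 genes held under every alternative, and 19 turned under at least 1. With array weights, whose estimation stopped before full convergence, 887 genes were lower and 193 higher at an unadjusted p under 0.05 (141 and 71 as reported), 3 synaptic adhesion genes were lower (Clstn3, Flrt3 and Slitrk1), the median of the binding partners was -0.21, Med23 was at -0.43 with an unadjusted p under 0.05, and Cntn2 (0.16), Cntnap4 (0.10) and Flrt2 (-0.32) changed sign. Without a filter 140 genes were higher, and 2 adhesion genes lower (Cntnap5b and Slitrk1). With quantile normalization 0 adhesion genes were lower (Slitrk1 no longer passed) and 1 was higher (Clstn2), and with a covariate for the leading digit of the mouse number 0 were lower (again without Slitrk1). Centring on the median put Lrrc4 at 0.02.

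With each library left out in turn, between 71 (without KO_218) and 410 (without KO_117) genes were lower and between 44 (without WT_215) and 362 (without KO_117) higher at an unadjusted p under 0.05, and 0 to 1 passed an adjusted p. Of the adhesion genes, 0 to 2 were lower and 0 to 1 higher, and 1 to 7 had groups that did not overlap on the lower side (2.14% to 12.1% of all genes) and 1 on the higher side (1.06% to 5.14% of all genes). The median of the binding partners went from -0.30 to 0.01. The log2 differences went from -0.31 to 0.14 for Clstn1, -0.48 to 0.06 for Cntn1, -0.67 to 0.68 for Cntn2, -0.03 to 0.86 for Cntn3, -0.21 to 0.09 for Cntn4, -0.24 to 0.12 for Cntnap4, -0.09 to 0.48 for Flrt1, -0.47 to 0.36 for Flrt2, -0.72 to 0.12 for Lrfn1, -0.39 to 0.04 for Lrfn3 and -0.90 to 0.31 for Lrfn4. They went from -0.32 to 0.29 for Lrrc4, -0.19 to 0.36 for Lrrc4c, -0.42 to 0.12 for Nlgn1, -1.06 to 0.07 for Nlgn2, -0.70 to 0.06 for Nrxn2, -0.61 to 0.19 for Slitrk3 and -0.49 to 0.02 for Slitrk4. The cause was not tested. No paired analysis was possible because the groups share no mouse number.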
